A study of Mus musculus with 8 samples.

Results

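The cytosolic DNA sensing adaptor STING, encoded by Tmem173, and 8 genes of the interferon pathway downstream of it were examined in sorted mouse sensory neurons of both sexes. The members were the kinase gene Tbk1, the transcription factor genes Irf3, Irf7, Irf9 and Stat2, the receptor gene Ifnar1, and the response genes Oasl2 and Ifi27l2a. They are 9 of 22609 genes counted, and all 9 were among the 12518 genes that passed the expression filter. They were chosen by name with the sex comparison of these same libraries known, so every female against male difference of a member is given as a description, without a p-value. The number of members past a threshold is given once, beside the share of all tested genes, and nothing is read from it.

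RNA came from neurons of lumbar dorsal root ganglia (DRG, L3 to L5) of naive wild-type C57BL/6J mice of 8 to 12 weeks. The fluorescent lectin WGA-488 had been placed in hindpaw and thigh 2 days earlier and was carried back along the axons, and labelled cells were sorted from 6 ganglia for each library. There were 4 female libraries, from mice in the estrous phase, and 4 male libraries, each from a separate mouse, so the error terms below hold the spread between mice and between sorts together. Neurons that innervate skin and neurons that innervate muscle are mixed in every library. Each library held 4.80 to 7.33 M (1e6) gene reads, and the floor, the level that 3 reads give, was 0.409 to 0.625 counts per 1e6 gene reads (CPM). Reads were amplified by PCR without molecular identifiers, so floors cover counting error only. Female replicate 4 stood apart from the other libraries in its overall profile, and values without it are given beside some, not all, of the results that it moves.

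As background, double-stranded DNA in the cytosol is bound by cGAS, which makes the cyclic dinucleotide cGAMP, and cGAMP activates STING in the endoplasmic reticulum membrane. STING recruits the kinase TBK1, which phosphorylates the transcription factor IRF3 and thereby switches on type I interferon genes. Secreted interferon binds a receptor of IFNAR1 and IFNAR2 chains on the same or neighbouring cells, and a complex that holds STAT2 and IRF9 then drives response genes, among them IRF7 and the oligoadenylate synthetase-like genes. In sensory neurons this pathway is known for its role in nociception.

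Tmem173 (chr18:35893332-35900208, minus strand, build mm9) was the member with the widest separation of the sexes. Its 4 female libraries held 4.54, 8.16, 8.33 and 6.91 CPM, from 33 to 47 reads each, and its 4 male libraries held 35.2, 25.7, 20.8 and 27.1 CPM, from 126 to 258 reads. The highest female library stayed well under the lowest male library, and every value was above the floor. The mean was 6.98 ± 1.75 CPM in females and 27.2 ± 5.98 CPM in males (SD, n = 4 each), a log2 fold change, female over male, of -1.99 ± 0.24 (SE). Over 16 other ways of processing the counts this value lay between -2.10 and -1.71. In bulk samples fewer expressing cells and less RNA per cell cannot be told apart.

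**Figure D1:**
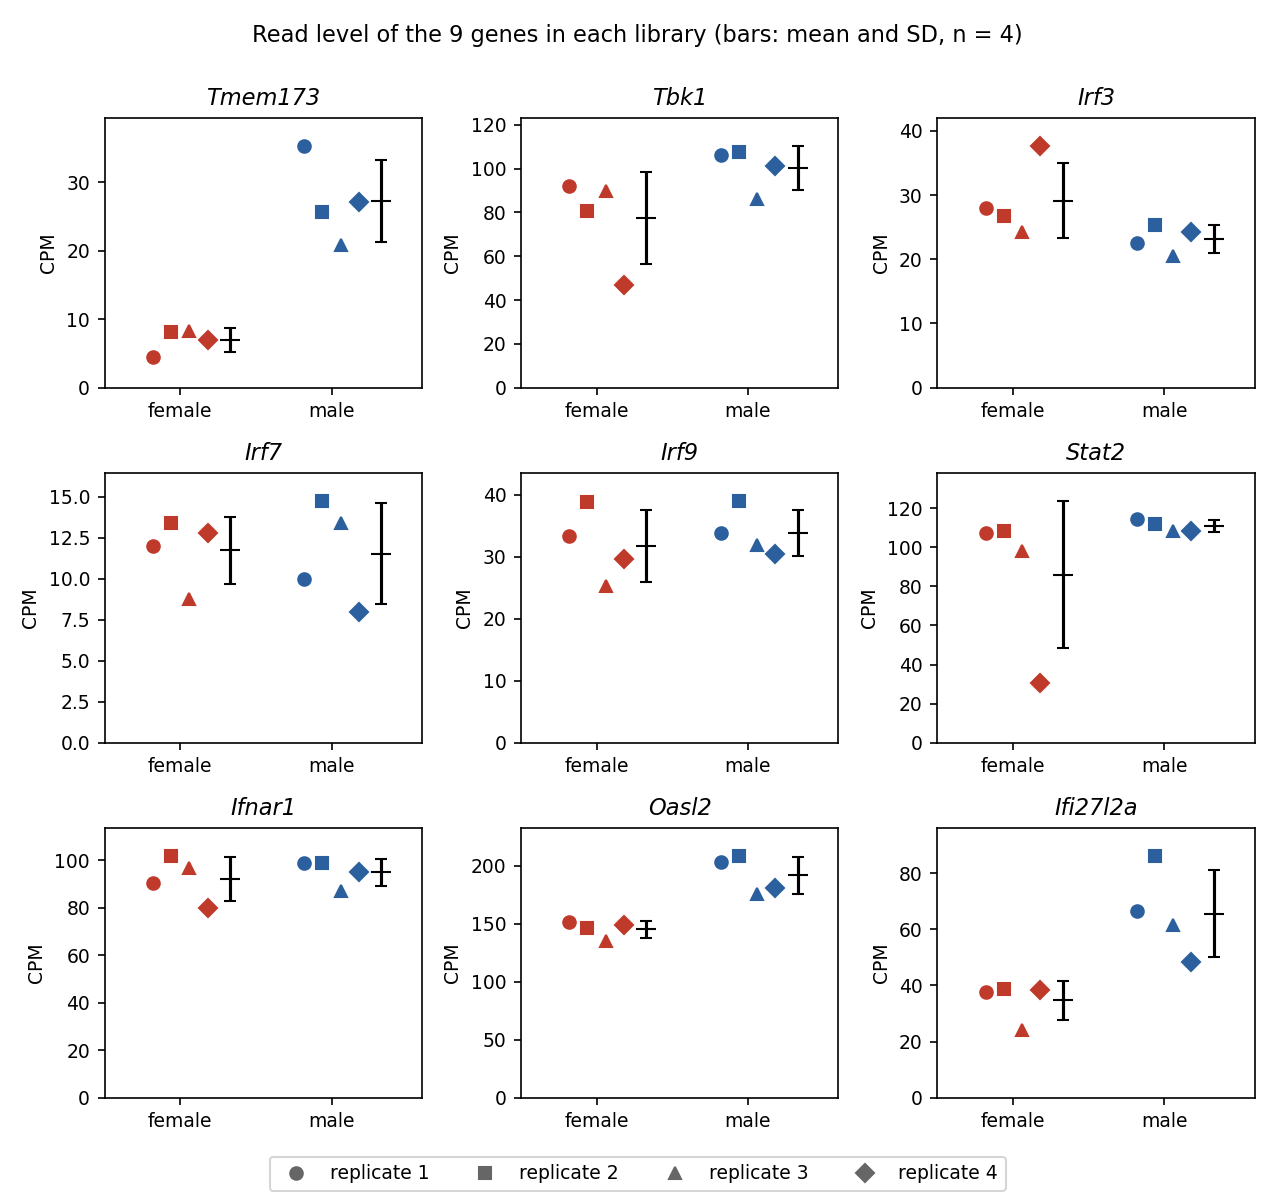
CPM of each of the 9 genes (vertical axes from 0, one panel a gene) in the 4 female (red) and 4 male (blue) libraries, with marker shapes for replicate numbers and black bars for mean and SD. The sexes are fully apart for Tmem173, Oasl2 and Ifi27l2a, and female replicate 4 is far below the other libraries for Stat2 and Tbk1.

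Tbk1 (chr10:120983511-121023850, minus strand), the kinase that STING recruits, did not separate the sexes. It was at 92.0, 80.7, 90.0 and 46.7 CPM in the female libraries and at 106, 108, 86.0 and 101 CPM in the male libraries. Male replicate 3 lay among the females, and female replicate 4 was far below all other libraries. The log2 fold change was -0.39 ± 0.20 (SE) with all libraries and -0.21 without female replicate 4.

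Irf3 (chr7:52253018-52258218, plus strand), the factor that TBK1 phosphorylates, had the opposite sign. It was at 28.0, 26.7, 24.2 and 37.6 CPM in females and at 22.5, 25.4, 20.5 and 24.3 CPM in males, with a log2 fold change of 0.32 ± 0.16 (SE). Female replicate 3 lay within the male range, and the highest value was again that of female replicate 4, without which the log2 fold change was 0.17. Irf3 shares 88 exon bases with Bcl2l12 on the other strand, and whether the counting used strand is not given in the sources used here.

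Irf7 (chr7:148448605-148452380, minus strand), a factor that amplifies the interferon response, had the lowest mean over all 8 libraries of any member, though Tmem173 was lower in the 4 female libraries by CPM. It was at 11.96, 13.4, 8.75 and 12.8 CPM in females and at 9.96, 14.7, 13.4 and 7.99 CPM in males, so the sexes lay over one another. Its log2 fold change was 0.02 ± 0.22 (SE) and turned negative in 5 of 16 alternatives. It shares 45 exon bases with Phrf1 on the other strand.

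Irf9 (chr14:56222408-56228867, plus strand), the DNA-binding partner of STAT2, was also level between the sexes. It was at 33.3, 38.9, 25.2 and 29.6 CPM in females and at 33.8, 38.9, 31.9 and 30.5 CPM in males, with a log2 fold change of -0.10 ± 0.16 (SE). Irf9 shares 123 exon bases with Rnf31 on the same strand, and reads there cannot be assigned to one gene with certainty.

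Stat2 (chr10:127707629-127729905, plus strand), its partner, was the most even member in males and the least even in females. The male libraries held 115, 112, 108 and 109 CPM. The female libraries held 108, 108, 97.9 and 30.3 CPM, the last again in female replicate 4. On the log2(CPM + 1) scale the SD between libraries was 0.88 in females, which is 12.1 times the SD that counting alone gives, and 0.04 in males, which is 0.746 times. The log2 fold change was -0.38 ± 0.31 (SE) with all libraries and -0.10 without female replicate 4.

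Only the stretch upstream of Stat2 held a match to the core of an interferon regulatory factor (IRF) motif among the members with a promoter sequence. Promoter windows, 250 bases before to 50 after the start, came from RefSeq (GRCm38.p6, another build than the gene positions above) and were found for 7 of the 9 genes, in 8 windows. The letters GAAANNGAA were searched on both strands, and 8.56% of 32851 windows of all genes held them. Below, Stat2 is shown from 250 to 171 bases before its start (chr10:128270248-128270327, plus strand) and Oasl2, which had no match, from 120 bases to 1 base before it (chr5:114896814-114896933, plus strand). Capitals mark the match, which reads from the other strand.
Stat2: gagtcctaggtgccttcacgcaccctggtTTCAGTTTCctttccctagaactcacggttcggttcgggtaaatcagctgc
Oasl2: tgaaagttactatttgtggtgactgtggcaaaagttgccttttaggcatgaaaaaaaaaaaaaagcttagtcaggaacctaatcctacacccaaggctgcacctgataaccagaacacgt
The letters TTCNNNGAA of an interferon gamma-activated site (GAS), which read the same on both strands, were held by 8.30% of all windows and by 1 of the 7 members, Ifnar1. A match is a description of the letters and not evidence of binding.

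Ifnar1 (chr16:91485483-91507686, plus strand), the receptor chain for type I interferon, varied little. It was at 90.5, 102, 96.7 and 79.8 CPM in females and at 98.6, 98.9, 86.9 and 95.0 CPM in males, with female replicates 2 and 4 at the ends of the range of all libraries. The log2 fold change was -0.06 ± 0.12 (SE) and 0.00 without female replicate 4.

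Oasl2 (chr5:115346943-115362243, plus strand), an oligoadenylate synthetase-like response gene, was lower in every female than in any male library. It was at 151, 146, 135 and 149 CPM in females and at 203, 208, 176 and 181 CPM in males, or 145 ± 7.28 CPM against 192 ± 16.0 CPM (SD, n = 4 each). The log2 fold change was -0.42 ± 0.10 (SE), and -0.43 without female replicate 4.

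Ifi27l2a (chr12:104680377-104681890, minus strand), a small interferon-induced membrane protein gene, was separated too. It was at 37.5, 38.7, 24.2 and 38.2 CPM in females and at 66.4, 86.0, 61.6 and 48.4 CPM in males, or 34.7 ± 7.01 CPM against 65.6 ± 15.6 CPM (SD, n = 4 each). The log2 fold change was -0.93 ± 0.20 (SE), and -0.98 without female replicate 4. Its model has 463 exon bases, of which 215 are shared with Ifi27l2b, and Ifi27l2b was listed with 0 reads in all 8 libraries, so how reads of these neighbours were divided is uncertain.

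Counted together, 3 of the 9 members had sexes that did not overlap in CPM, all higher in males, where 2.52% of all tested genes were apart in that direction and 3.0% with females higher. This number was 5 without male replicate 3, when the Tbk1 and Stat2 values of the sexes also came apart. By edgeR's adjusted p-value 1 member passed 0.05, Tmem173, beside 0.0879% of all tested genes, and it did not pass in 2 of 16 alternatives, those with the replicate block and with the glia covariate. DESeq2 passed 3 members, Tmem173, Oasl2 and Ifi27l2a, beside 0.383%, and limma-voom 1, Tmem173, beside 0.0799%. The contrast is the one known when the members were chosen, so these counts are no test of the members. The median log2 fold change was -0.38 over the members and 0.01 over all tested genes, with 7 members negative and 2 positive. Without female replicate 4 the median over the members was -0.10.

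Levels were compared between members per exon length, as reads per kilobase of exon and per 1e6 gene reads (RPKM), a quantity the choice of members did not use. From highest to lowest mean over the 8 libraries the order was Ifi27l2a at 108 RPKM, Oasl2 at 43.4, Tbk1 at 29.3, Stat2 at 22.3, Ifnar1 at 15.9, Irf3 at 8.20, Tmem173 at 7.42, Irf9 at 6.08 and Irf7 at 3.84 RPKM. On this scale the 2 response genes led, the kinase, STAT2 and the receptor followed, and the 3 IRF factors and STING closed the order. The first place of Ifi27l2a rests on division by its 463 exon bases, 215 of them shared with Ifi27l2b. By CPM Oasl2 led at 169, and Ifi27l2a, at 50.1 CPM, stood below Stat2 at 98.4, Ifnar1 at 93.5 and Tbk1 at 88.8 CPM.

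Of the 8 neighbouring pairs in that order, 5 kept one direction in all 8 libraries, each with an adjusted p of 0.0125 (two-sided exact sign-flip permutation test within libraries, whose smallest possible p is 0.00781, Benjamini-Hochberg over the 8 pairs). The pairs were set by the means of these same libraries, which the p-values do not allow for. Stat2 and Ifnar1 were not separated (adjusted p = 0.104, exact permutation test), with Stat2 above in 7 of 8 libraries and below in female replicate 4. Without that library the means ranked Tmem173 above Irf3, and 7 of the 8 pairs of that changed order were separated, Stat2 and Ifnar1 among them, while Tmem173 and Irf3 were not. Irf3 and Tmem173 were not separated (adjusted p = 0.384, exact permutation test), nor were Tmem173 and Irf9 (adjusted p = 0.945, exact permutation test). Tmem173 stood at 1.97 to 3.62 RPKM in females, under Irf9 in all 4, and at 9.04 to 15.3 RPKM in males, above Irf3 and Irf9 in all 4. Ranked by CPM with no division by length, 2 neighbouring pairs were separated.

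**Figure D2:**
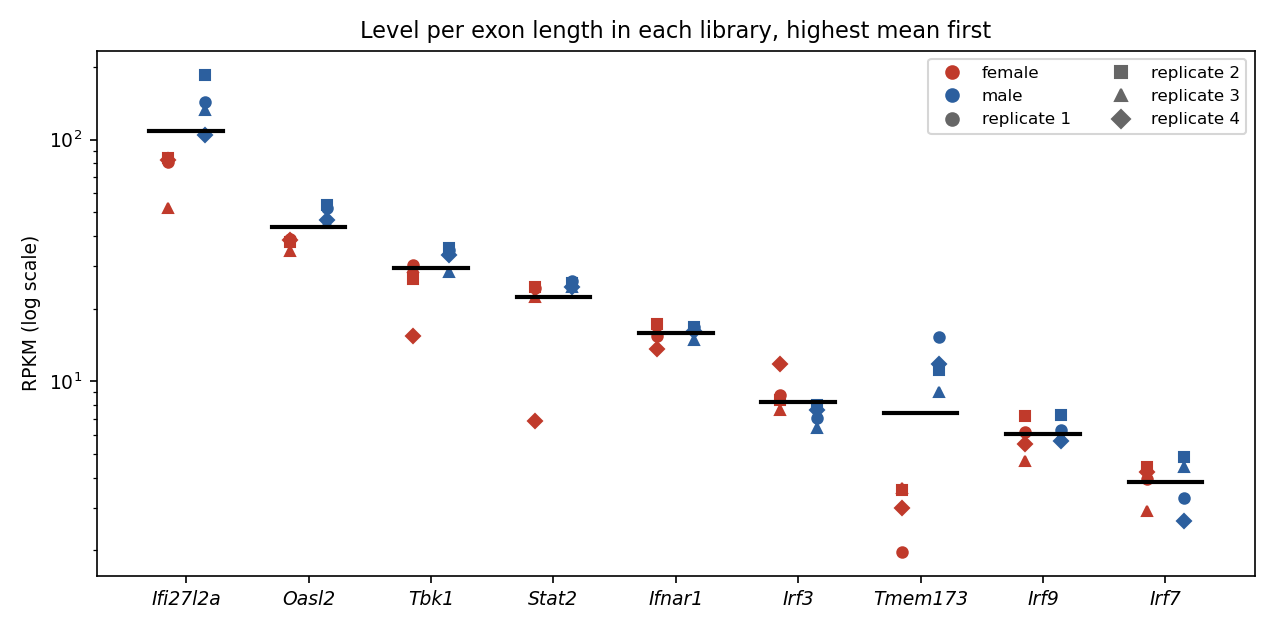
RPKM (log axis) of the 9 genes in each of the 8 libraries, females in red on the left and males in blue on the right of each gene, replicate numbers by shape, and a black line at the mean of all 8. Tmem173 is below Irf9 in the 4 females and above Irf3 in the 4 males, while the other members keep their place in both sexes except Stat2 in female replicate 4.

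Markers of other cells were read beside Tmem173, since macrophages and other immune cells are known to express it. The 17 macrophage markers summed to 9.37 to 15.3 CPM in females and 5.18 to 10.8 CPM in males, so the list as a whole was lower than Tmem173 in every male library and higher than it in every female library. Ptprc, the common leukocyte antigen, had 0 reads in all 4 male libraries and at most 0.347 CPM in any female library. The 10 lymphocyte markers summed to 1.77 to 4.37 CPM, with Cd3d and Cd3g at 0 in all libraries, and the 10 endothelial markers to 60.6 to 104 CPM with overlapping sexes.

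The summed glia and fibroblast lists did separate the sexes, the glia sum only while 1 gene was kept in. The 15 glia and Schwann cell markers summed to 11786 to 15220 CPM in females and 5599 to 11380 CPM in males, and the 10 fibroblast markers to 145 to 181 CPM in females and 53.2 to 129 CPM in males. Apoe, an apolipoprotein gene that satellite glia express, alone held 8054 to 10873 CPM in females and 3068 to 7796 CPM in males. Apoe was then left out, a choice made after seeing the data. The glia sums were then 3430 to 4346 CPM in females and 2532 to 3584 CPM in males. They overlapped only through male replicate 3, and the ratio of means, female over male, was 1.18, against 1.41 with Apoe. Both full sums ran higher in females, the opposite direction to Tmem173, Oasl2 and Ifi27l2a. With the glia score as a covariate the log2 fold change was -1.71 for Tmem173, -0.33 for Oasl2 and -0.92 for Ifi27l2a. The 15 pan-neuronal markers summed to 25042 to 35480 CPM with overlapping sexes. The 10 nociceptor markers summed to 8039 to 9769 CPM in females and 9413 to 12484 CPM in males. This sum was highest in male replicate 1, which also had the highest Tmem173. In female replicate 2, at 9769 CPM, it was above male replicates 2 and 3, at 9413 and 9657 CPM. The part of the cell mixture in the member differences was not tested.

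**Figure D3:**
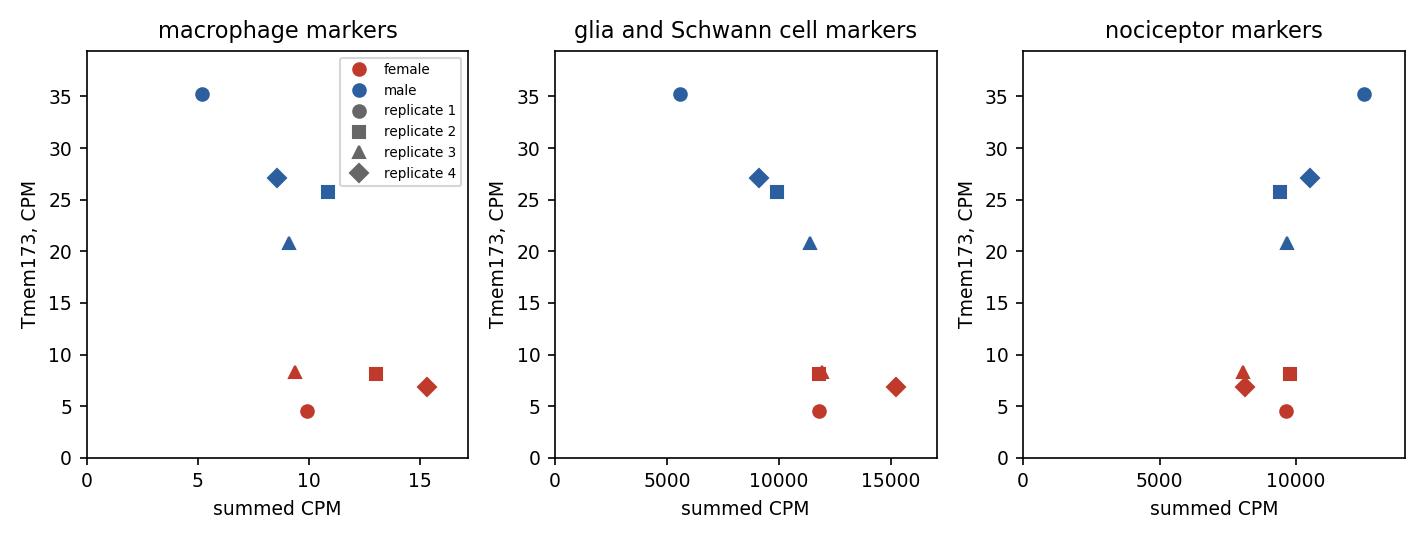
Tmem173 in CPM (vertical) against the summed CPM of macrophage, glia and Schwann cell, and nociceptor markers (horizontal) for the 4 female (red) and 4 male (blue) libraries. Male replicate 1, with 35.2 CPM of Tmem173, has the lowest macrophage and glia sums and the highest nociceptor sum. Female replicate 2 has a higher nociceptor sum than male replicates 2 and 3.

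The rest of the pathway was read from 9 lists of genes, 185 in all, of which 184 were counted and 131 tested. None of the 131 passed an adjusted p of 0.05 with edgeR, and none passed with DESeq2 or limma-voom. At an unadjusted edgeR p under 0.05, 10 were higher in females and 5 in males, beside 4.62% and 2.48% of all tested genes in those directions. The first count was 5 without female replicate 2, 5 without female replicate 3, and 4, 4 and 6 without male replicates 1, 3 and 4. The second was 8 without female replicate 1 and 2, 1 and 2 without male replicates 1, 2 and 4. The median log2 fold change was -0.02, against 0.01 over all tested genes. In 4 genes the sexes were apart with females higher, and in 2 with males higher, beside 3.0% and 2.52% of all tested genes, so neither count stood out from the background. With limma-voom the unadjusted counts were 3 higher in females and 7 higher in males, the opposite balance to edgeR.

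**Figure D4:**
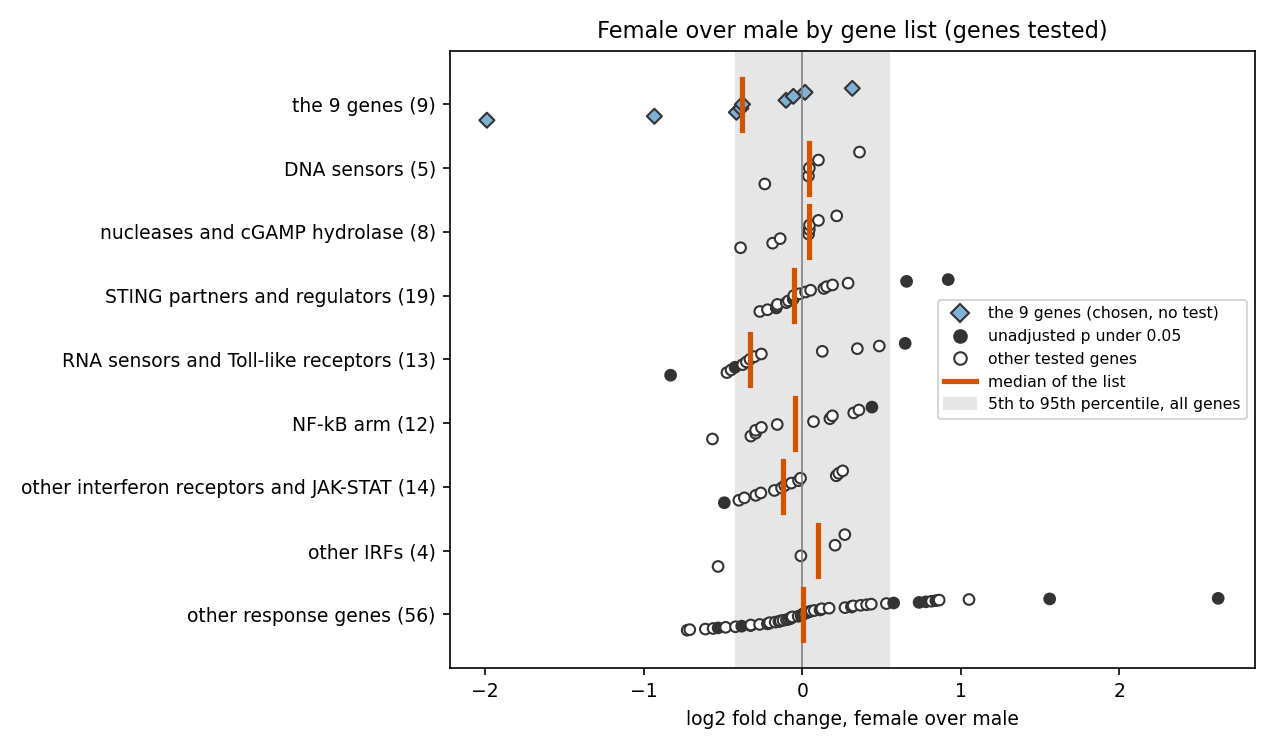
log2 fold change, female over male, of the 9 genes (blue diamonds) and of tested pathway genes by list (circles, filled where the unadjusted edgeR p was under 0.05), with each list's median as an orange bar and the 5th to 95th percentile of all tested genes in grey. Tmem173 and Ifi27l2a lie left of the grey band, and Ifi47 and Gbp2 farthest right of it.

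Upstream of STING, 7 of the 12 listed DNA sensors were too low to be tested. The cGAS gene, counted as E330016A19Rik, was at 0 to 1.49 CPM and was not tested, and Ifi203, Ifi204, Ifi205, Mnda and Aim2 never exceeded 0.546 CPM. The 5 tested sensors had a median log2 fold change of 0.04, and none passed an unadjusted p of 0.05. The most abundant were the DNA repair subunit genes Xrcc5, at 37.8 ± 5.77 CPM in females and 36.3 ± 3.57 in males, and Prkdc, at 27.8 ± 7.42 and 26.8 ± 3.36 CPM (SD, n = 4 each). For Xrcc5 the log2 fold change was 0.04 with all libraries and -0.01 without female replicate 4.

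Of the nucleases and the cGAMP hydrolase, which limit DNA, RNA hybrids or cGAMP, 8 of 9 were tested and none passed an unadjusted p of 0.05. Adar, an RNA-editing deaminase, was at 60.4 ± 18.4 CPM in females and 66.0 ± 6.47 in males, and Dnase1l3, a secreted nuclease, at 63.0 ± 11.6 and 71.0 ± 10.9 CPM (SD, n = 4 each). For Adar the log2 fold change was -0.14 with all libraries and 0.06 without female replicate 4. Enpp1, which hydrolyses cGAMP outside cells, was at 4.55 to 11.0 CPM in females and 1.91 to 14.2 CPM in males.

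Among 19 tested STING partners and regulators, 2 had an unadjusted p under 0.05, both higher in females and neither past adjustment. Rhbdf2, whose product iRhom2 helps STING traffic, was at 4.54, 5.73, 5.00 and 4.21 CPM in females and 3.14, 4.01, 2.48 and 2.51 CPM in males, with a log2 fold change of 0.66 ± 0.25 (SE, edgeR adjusted p = 0.647). Rnf26, an E3 ligase of STING, was at 4.54, 10.2, 14.2 and 14.7 CPM in females and 4.64, 5.50, 3.96 and 8.43 CPM in males, with a log2 fold change of 0.92 ± 0.37 (SE, edgeR adjusted p = 0.647). Without female replicate 4 the log2 fold change of Rnf26 was 0.73. The Rnf26 gene model shares exon bases with Gm3906, Mfrp and Usp2. Trim32, another ligase gene, was at 131 ± 22.2 CPM in females and 135 ± 4.79 in males (SD, n = 4 each), a log2 fold change of -0.05 that was 0.06 without female replicate 4.

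RNA sensors and Toll-like receptors had the lowest list median, a log2 fold change of -0.33, and -0.22 without female replicate 4. Of 13 tested, Tlr4, the lipopolysaccharide receptor, and Ticam1, the adaptor TRIF, had an unadjusted p under 0.05 with males higher, and Mavs, the mitochondrial adaptor of RNA sensing, with females higher. Tlr4 was at 4.54, 5.55, 3.96 and 1.85 CPM in females and 10.1, 5.79, 5.28 and 6.80 CPM in males, a log2 fold change of -0.83 ± 0.33 (SE, edgeR adjusted p = 0.652). Ticam1 was at 7.69 ± 1.16 CPM in females and 10.2 ± 1.22 in males (SD, n = 4 each), a log2 fold change of -0.42. Its sexes were apart only narrowly, with 8.54 CPM in the highest female and 8.59 CPM in the lowest male library. Mavs was at 9.79 ± 3.27 and 6.19 ± 1.80 CPM (SD, n = 4 each), with a log2 fold change of 0.65. The 2 most abundant genes of the list were the RIG-I gene Ddx58, at 32.3 ± 9.59 CPM in females and 43.8 ± 4.78 in males, and Trim25, its ligase, at 30.7 ± 14.6 and 42.4 ± 6.70 CPM (SD, n = 4 each). Without female replicate 4 the log2 fold change went from -0.45 to -0.26 for Ddx58 and from -0.47 to -0.22 for Trim25.

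In the NF-kB arm, which STING also engages, 1 of 12 tested genes had an unadjusted p under 0.05. Relb, a subunit of the noncanonical pathway, was at 9.07, 7.29, 7.92 and 8.76 CPM in females and 5.87, 5.20, 6.27 and 6.80 CPM in males, fully apart, with a log2 fold change of 0.44 ± 0.18 (SE, edgeR adjusted p = 0.677). The most abundant were Ikbkg, at 45.7 ± 12.3 CPM in females and 54.1 ± 4.49 in males, and Rela, at 49.2 ± 5.21 and 42.7 ± 4.25 CPM (SD, n = 4 each). For Ikbkg the log2 fold change was -0.26 with all libraries and -0.08 without female replicate 4.

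No transcript of an interferon was counted. All 18 ligand genes, Ifnb1, the Ifna genes and Ifng among them, had 0 reads in the 8 libraries, which allows up to 0.409 to 0.625 CPM for each. The receptor partners of Ifnar1 were present: Ifnar2 was at 22.5 to 27.8 CPM in females and 17.9 to 23.9 CPM in males. Of 14 tested receptor and JAK-STAT genes, Usp18, a brake on IFNAR signalling that interferon induces, had an unadjusted p under 0.05. It was at 11.7, 11.1, 7.71 and 9.77 CPM in females and 14.5, 18.4, 11.7 and 11.7 CPM in males, a log2 fold change of -0.49 ± 0.20 (SE, edgeR adjusted p = 0.689). Stat3 and Jak1 were the most abundant, Stat3 at 354 to 660 CPM in females and 633 to 717 CPM in males, and Jak1 at 167 to 421 and 326 to 392 CPM, each lowest in female replicate 4. Without that library the log2 fold change went from -0.29 to -0.13 for Stat3 and from -0.07 to 0.16 for Jak1. No other IRF gene had an unadjusted p under 0.05. Irf1 was at 29.7 ± 9.20 CPM in females and 25.4 ± 10.5 in males (SD, n = 4 each).

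Of 56 tested response genes other than Oasl2 and Ifi27l2a, 6 had an unadjusted p under 0.05 with females higher and 2 with males higher, and none passed adjustment. The list median was 0.00. On the male side were Ifit1 and Lgals9. Ifit1, which binds foreign RNA ends, was at 74.1, 71.5, 61.9 and 64.0 CPM in females and 96.5, 126, 103 and 63.2 CPM in males, a log2 fold change of -0.53 ± 0.19 (SE, edgeR adjusted p = 0.630). Male replicate 4 lay within the female range. Lgals9, the galectin-9 gene, was at 277 ± 53.3 CPM in females and 356 ± 54.3 in males (SD, n = 4 each), with a log2 fold change of -0.38.

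On the female side were Ifi47 and Gbp2, genes of the interferon-inducible GTPases, Tap1, Tap2 and Psmb9 of antigen processing, and Parp12. Ifi47 was at 1.92, 34.2, 15.0 and 3.54 CPM in females and 1.501, 4.60, 1.98 and 0.592 CPM in males, a log2 fold change of 2.62 ± 0.86 (SE, edgeR adjusted p = 0.630). Gbp2 was at 8.25, 54.3, 26.7 and 7.75 CPM in females and 7.09, 9.80, 6.77 and 8.73 CPM in males, a log2 fold change of 1.56 ± 0.56 (SE, edgeR adjusted p = 0.630). Both were high in female replicates 2 and 3, with the other females among the males, and the lowest log2 fold change after leaving out 1 library was 1.58 for Ifi47 and 0.77 for Gbp2.

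Tap2, a subunit of the peptide transporter, was the one gene of this side whose sexes were apart. It was at 61.5, 82.3, 76.5 and 62.3 CPM in females and 47.1, 52.1, 48.7 and 39.6 CPM in males, a log2 fold change of 0.58 ± 0.14 (SE, edgeR adjusted p = 0.482). Its partner Tap1 was at 20.7 ± 9.13 CPM in females and 12.3 ± 3.54 in males, Psmb9 at 8.04 ± 4.04 and 4.39 ± 1.26 CPM, and Parp12 at 13.9 ± 6.17 and 7.95 ± 1.90 CPM (SD, n = 4 each). Tap1 and Psmb9 share exon bases. The most abundant response genes, which carry the class I antigen complex, were B2m, at 426 ± 52.5 CPM in females and 415 ± 85.8 in males, and H2-D1, at 396 ± 40.7 and 441 ± 54.9 CPM (SD, n = 4 each).

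**Figure D5:**
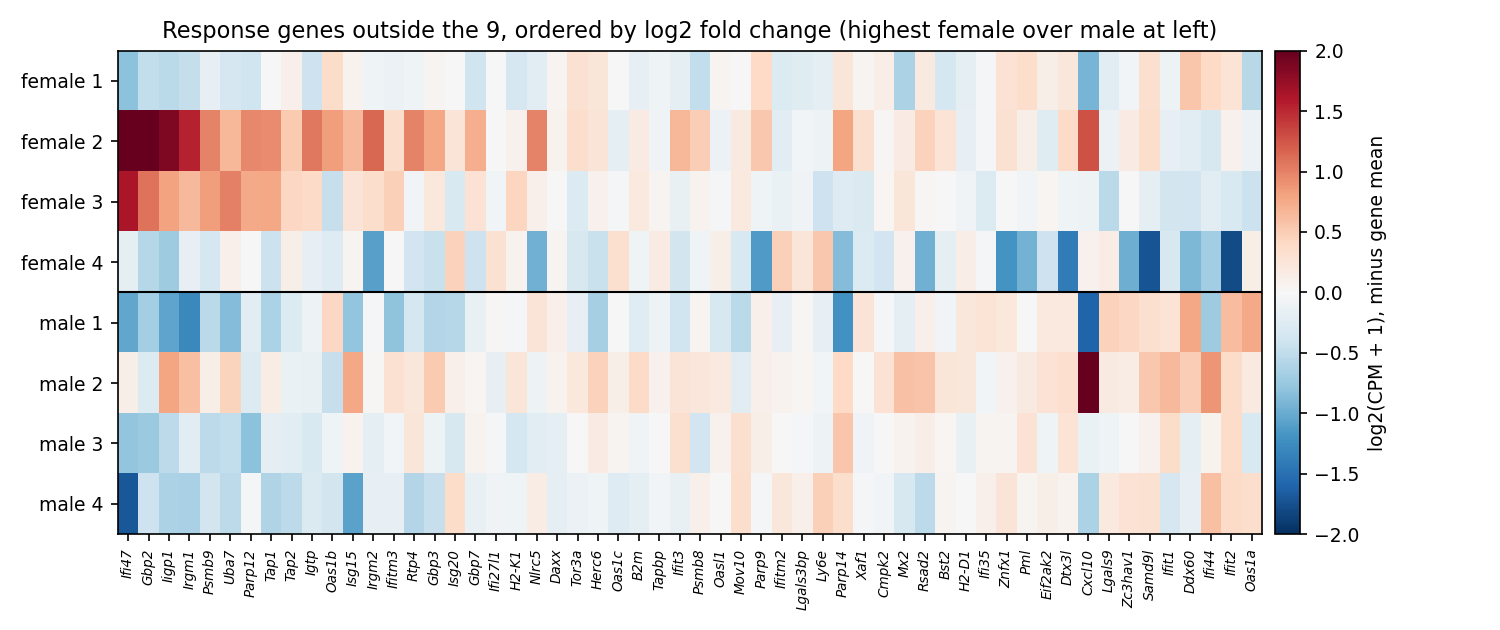
log2(CPM + 1) of the 56 tested response genes outside the 9, minus each gene's mean, in the 8 libraries (rows), genes ordered by log2 fold change with the highest female over male at the left; colours end at 2 log2 units either way. The red block at the left is in female replicates 2 and 3, and the blue cells at the right of the female rows are mostly in female replicate 4.

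The IRF letters were also found upstream of Ifit1, higher in males at an unadjusted p under 0.05, and of Gbp2, higher in females, which are shown here. Of the other named pathway genes with a window, Lgals9, B2m, Adar, Ddx58, Trim25 and Xrcc5 also held matches. Ifit1, shown from 135 to 56 bases before its start (chr19:34640754-34640833, plus strand, GRCm38.p6, RefSeq), held 3 matches, of which 2 overlap. Gbp2, shown from 109 to 30 bases before its start (chr3:142620554-142620633, plus strand), held 1. Capitals mark the matches, and Ifi47, Parp12, Psmb9 and Tap1 had none in their windows.
Ifit1: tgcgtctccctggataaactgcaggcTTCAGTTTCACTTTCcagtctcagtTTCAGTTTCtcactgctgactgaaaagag
Gbp2: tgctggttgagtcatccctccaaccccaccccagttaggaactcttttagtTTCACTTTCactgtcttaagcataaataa

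The 6 tested genes nearest to Tmem173, 3 on each side, were compared next. None passed an adjusted p of 0.05 with edgeR, DESeq2 or limma-voom, and none had an unadjusted edgeR p under 0.05. Dnajc18 and Ube2d2, the nearest on either side at 30.5 and 31.0 kb, had log2 fold changes of -0.01 ± 0.12 and -0.12 ± 0.14 (SE). Paip2, Spata24, Cxxc5 and Pura lay farther off, at 116, 71.5, 89.3 and 541 kb. They had log2 fold changes of 0.11, 0.16, 0.34 and 0.27, with overlapping sexes in each.

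The profiles most like that of Tmem173 were ranked by the root mean square difference of log2(CPM + 1), each centred on its own mean, over the 8 libraries. Timp1, a metalloprotease inhibitor gene, was closest at 0.281 log2 units, with 1.37 to 2.02 CPM in females and 5.28 to 13.6 in males. Accsl followed at 0.344, Fam150b, a receptor ligand gene also called Alkal2, at 0.380, the serpin gene Serpina3i at 0.443 and the protease gene Adamts8 at 0.455, against a median of 0.990 over all tested genes. Accsl had 2 to 6 reads in each female library. Of the other members Ifi27l2a was at rank 27, Oasl2 at rank 193 and Tbk1 at rank 395, while Irf3 was at rank 10552. Since Tmem173 was chosen for its pattern, this order is a description.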

How the data were processed

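The authors aligned reads of 50 bases to mm9 (TopHat2) and tallied them by gene symbol (HTSeq). They deposited raw counts, not normalized. Versions, annotation and strand option are not given in the sources used here. The 5 summary lines of the counting program, 76.1% to 77.6% of the reads tallied, stayed out of depth and tests. CPM and RPKM were computed from gene reads and exon lengths of GENCODE M1, to which 21679 symbols matched.

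Sexes were compared in edgeR 4.0.16 (R 4.3.3) by its quasi-likelihood test, with TMM scaling, the default expression filter and Benjamini-Hochberg adjustment over 12518 genes. The common biological coefficient of variation was 0.205. DESeq2 1.42.0 and limma-voom (limma 3.58.1) were alternatives, beside other scalings and filters, each library left out, the replicate number as a block and a glia covariate. The code was tested on simulated data. The members and lists were chosen with earlier results of these data known. Named were all members, pathway genes with an unadjusted p under 0.05, the 2 most abundant of each list, 6 neighbours and 5 similar genes, and some of these are not reported here. No pair of libraries agreed within counting noise (chi-square over degrees of freedom at least 2.90), so none were merged. The labels give no batch. Other preparations of the study were not analysed here.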

Additional observations from a re-analysis of the deposited data

Results flagged for a closer look

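A library was marked where it lay far from the other 3 of its sex by Dixon's criterion, which marks about 1 in 20 groups by chance. Of 106 groups 6 were marked, where chance gives 5.3, and 3 of the 6 are in female replicate 4. Stat2 was at 30.3 CPM in female replicate 4, against 97.9 to 108 in the other females. Ikbkg, the scaffold of the IKK complex, was at 27.3 CPM in the same library, against 49.98 to 53.1. The glia and Schwann cell markers summed to 15220 CPM there, against 11786 to 11937. Ifi27l2a was at 24.2 CPM in female replicate 3, against 37.5 to 38.7 in the other females. Irf1 was at 41.1 CPM in male replicate 2, against 19.2 to 21.0 in the other males. Paip2, a neighbour of Tmem173, was at 309 CPM in male replicate 1, against 277 to 281.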

How the results depend on the processing

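No neighbour or pathway gene outside the members passed adjustment under any alternative. Of all values compared, 816 of 837 stayed within the replicate spread or, for counts, within 1.5 times. Without 1 library, the genes passing adjustment ranged from 7 to 84 against 11, with 84 without female replicate 1. With DESeq2 they were 48, and 5 with the glia covariate. Pathway genes at an unadjusted p under 0.05 ranged from 4 to 13 higher in females and 1 to 8 higher in males. With limma-voom 3 were higher in females and 7 in males, and with the glia covariate 1 and 0. Members with sexes apart ranged from 3 to 5. Separated pairs in the order of levels ranged from 5 to 7, and were 2 by CPM. Of the 5 genes most like Tmem173, 3 remained with a pseudocount of 0.1. Replicate numbers did not pair the libraries, with correlations of 0.10, -0.12, 0.15 and 0.01 between same-numbered libraries, and the fit with the number as a block passed 6 genes. At these depths levels under 0.409 to 0.625 CPM are not detectable in single libraries, which covers the interferon ligands and several DNA sensors.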

Other observations

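Female replicate 2 held the highest value of 32 of the 131 tested pathway genes, or 24.4%, where it held the highest value of 12.2% of all tested genes. Male replicate 2 held the highest value of 21 of them, or 16.0%, where it held the highest value of 6.47% of all tested genes. For the tested pathway genes the ratio of female replicate 2 to the median of the other 7 libraries was read after the values were seen. The largest were those of interferon-inducible GTPase genes, 17.3 for Ifi47, 6.88 for Iigp1, 6.58 for Gbp2 and 3.54 for Irgm1. Genes of other kinds came next, Oas1b at 2.96, Cxcl10 at 2.90, Psmb9 at 2.88 and Nlrc5 at 2.51. The GTPase gene Irgm2 followed at 2.39, then Parp12 at 2.38 and the GTPase gene Igtp at 2.34. Igtp was at 122 CPM in female replicate 2 and 76.7 in female replicate 3, against 43.7 to 54.3 in the other 6 libraries. Tmem173, Oasl2 and Ifi27l2a in female replicate 2 lay within or next to the values of the other females, at 8.16, 146 and 38.7 CPM. Cxcl10, a chemokine gene that interferon induces, was highest in male replicate 2, at 31.6 CPM, and at 1.64 to 18.2 CPM in the other libraries.

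Female replicate 4 held the lowest value of 33.6% of the tested pathway genes and of 31.5% of all tested genes. It held the highest value of 18.3% of the tested pathway genes and of 31.4% of all tested genes. Its low values include Ifit2, at 12.1 CPM against 35.8 to 68.2 in the other libraries, and Samd9l, at 2.53 against 9.17 to 16.0 CPM.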
